A study of Mus musculus with 8 samples.

Results

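Smooth muscle and myofibroblast contractile genes were followed through the RNA-seq data of 1 mouse ESC line and 4 secondary iPSC lines. The genes are Acta2, Actg2, Tagln, Cnn1, Myl9, Tpm1, Tpm2, Des, Lmod1 and Myh11, chosen by name as well-known parts or markers of the smooth muscle contractile apparatus. The choice was made with earlier results of these data known. All 10 were found among the 22878 gene entries of the files, each with 1 entry. R1 is a mouse ESC line. Line 16-6 was reprogrammed from bone marrow hematopoietic cells, 32 from adipocyte progenitors, S8 from epidermal cells and T2 from stomach lining cells of 8-week-old all-iPSC mice, whose cells carry doxycycline-inducible Oct4, Sox2, c-Myc and Klf4. Each iPSC line is a single established line, so a difference from R1 belongs to that line and cannot be told apart from its tissue of origin. All 5 lines, R1 included, were kept in LIF and serum on mitotically inactivated mouse embryonic fibroblasts. There are 2 libraries each of R1, 16-6 and 32 and 1 library each of S8 and T2.

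In smooth muscle cells and myofibroblasts, actin filaments slide along smooth muscle myosin, and the force is set by phosphorylation of the myosin regulatory light chain. Most genes of this apparatus are controlled together by serum response factor (SRF), which binds the CArG box and is activated by myocardin or by the myocardin-related factors Mkl1 and Mkl2. TGF-beta signalling and a stiff substrate raise the same genes in fibroblasts as these become myofibroblasts. Several members, among them Acta2, Tagln, Tpm1 and Myl9, are thus expressed by cultured fibroblasts and not only by smooth muscle, whereas Myh11 and Lmod1 are largely restricted to smooth muscle.

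The promoters of the members are shown first, since SRF is known to act there. RefSeq promoter sequences (GRCm38.p6, 250 bases before to 50 after the start of the gene) were at hand for 7 of the 10 genes: Acta2, Cnn1, Myl9, Tpm1, Tpm2, Des and Lmod1. The sequences of Acta2, Myl9, Tpm1 and Lmod1, which hold the letters of a CArG box or come within 1 base of them, and of Cnn1, which does not, are printed 5′ to 3′ on the strand of the gene. Capitals mark the CArG box, which is CC, then A or T at each of the next 6 bases, then GG, with at most 1 mismatch.
Acta2 (chr19:34255324-34255623, minus strand): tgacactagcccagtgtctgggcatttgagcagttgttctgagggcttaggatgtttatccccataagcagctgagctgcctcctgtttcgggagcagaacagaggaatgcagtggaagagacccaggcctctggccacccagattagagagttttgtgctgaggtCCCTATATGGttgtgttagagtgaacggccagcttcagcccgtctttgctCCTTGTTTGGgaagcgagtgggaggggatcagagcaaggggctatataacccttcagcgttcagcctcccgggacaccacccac
Myl9 (chr2:156775214-156775513, plus strand): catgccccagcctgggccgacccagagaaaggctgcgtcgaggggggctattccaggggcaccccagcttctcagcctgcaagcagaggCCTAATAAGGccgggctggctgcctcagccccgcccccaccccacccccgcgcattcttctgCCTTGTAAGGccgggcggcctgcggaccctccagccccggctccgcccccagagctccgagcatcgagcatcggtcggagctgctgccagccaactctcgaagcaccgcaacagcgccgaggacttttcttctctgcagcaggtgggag
Tpm1 (chr9:67049164-67049463, minus strand): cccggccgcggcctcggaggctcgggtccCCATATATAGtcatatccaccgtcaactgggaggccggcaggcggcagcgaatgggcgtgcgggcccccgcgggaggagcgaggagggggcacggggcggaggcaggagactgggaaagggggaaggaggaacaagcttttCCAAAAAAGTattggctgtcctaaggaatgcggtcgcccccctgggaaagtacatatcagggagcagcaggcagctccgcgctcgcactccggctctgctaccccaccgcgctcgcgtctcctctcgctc
Lmod1 (chr1:135324563-135324862, plus strand): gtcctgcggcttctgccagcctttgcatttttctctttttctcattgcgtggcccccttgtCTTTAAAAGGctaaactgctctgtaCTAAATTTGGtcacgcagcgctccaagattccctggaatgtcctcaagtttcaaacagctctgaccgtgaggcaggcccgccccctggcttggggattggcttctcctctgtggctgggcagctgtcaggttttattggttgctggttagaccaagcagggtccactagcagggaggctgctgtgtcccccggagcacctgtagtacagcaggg
Cnn1 (chr9:22099003-22099302, plus strand): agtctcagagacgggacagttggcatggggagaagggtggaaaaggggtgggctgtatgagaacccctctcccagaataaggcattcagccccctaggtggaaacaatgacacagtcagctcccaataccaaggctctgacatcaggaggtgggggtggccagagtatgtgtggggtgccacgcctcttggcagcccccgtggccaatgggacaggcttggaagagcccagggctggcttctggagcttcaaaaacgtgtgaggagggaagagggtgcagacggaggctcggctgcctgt
An exact CArG box stood in the Myl9 promoter, with its first base at -161 from the start, and in none of the other 6. Matches with 1 mismatch began at -84 and -34 in Acta2, at -99 in Myl9, at -221 and -80 in Tpm1, and at -189 and -164 in Lmod1. The box reads the same way on both strands. Of all 32851 promoters in the table, 1.63% held an exact CArG box and 21.1% held one with at most 1 mismatch. The letters CATTCC, the core bound by TEAD factors, occurred on either strand in Acta2, Tpm1 and Lmod1, against 14.7% of all promoters. A match of letters is a description of the window and not a measured binding site.

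The level of each gene is given as FPKM, fragments per kilobase of transcript scaled to the size of the library, which corrects for transcript length and allows levels of different genes to be compared. The confidence limits of the deposited values correspond to an estimated 15.5 to 16.7 fragments per library in units of 1000000. The sources of the study list more reads for the single libraries of S8 and T2 than for the others. A smaller share of these reads mapped uniquely. This difference is not visible in the estimated totals. For some members, such as Myl9 and Cnn1, fewer fragments stood behind each FPKM in S8 than in the other lines, but not for Acta2. The part of either difference in the results was not tested. Differences are on the scale log2(FPKM + 1) and were tested with limma across 13693 gene entries. A gene was called at a Benjamini-Hochberg adjusted p below 0.05 and a difference of at least 1, which is 2-fold in FPKM + 1. The study calls the replicates biological, but the labels and methods do not say that they came from separate cultures. The variance between the replicate libraries was 1.34 times the sampling variance in R1, 1.08 in 16-6 and 1.29 in 32, so the p-values measure the spread between these libraries, which may be technical. S8 and T2 have no replicate, and their single libraries were assumed to vary like the other lines.

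All 10 genes had their highest level in 16-6. Both 16-6 libraries lay above every library of the other 4 lines for every member. How many of all tested entries show this order was not counted, so the order alone is no result about the members. Of the 13693 tested entries, 490, 1263, 1430 and 875 were called higher in 16-6 than in R1, 32, S8 and T2. The summed FPKM of the 10 genes was 375 and 369.7 in R1, 2713 and 2675 in 16-6, 567 and 585 in 32, 633 in S8 and 823 in T2. Thus the sum was also higher in 32, S8 and T2 than in R1, but by much less than in 16-6.

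**Figure D1:**
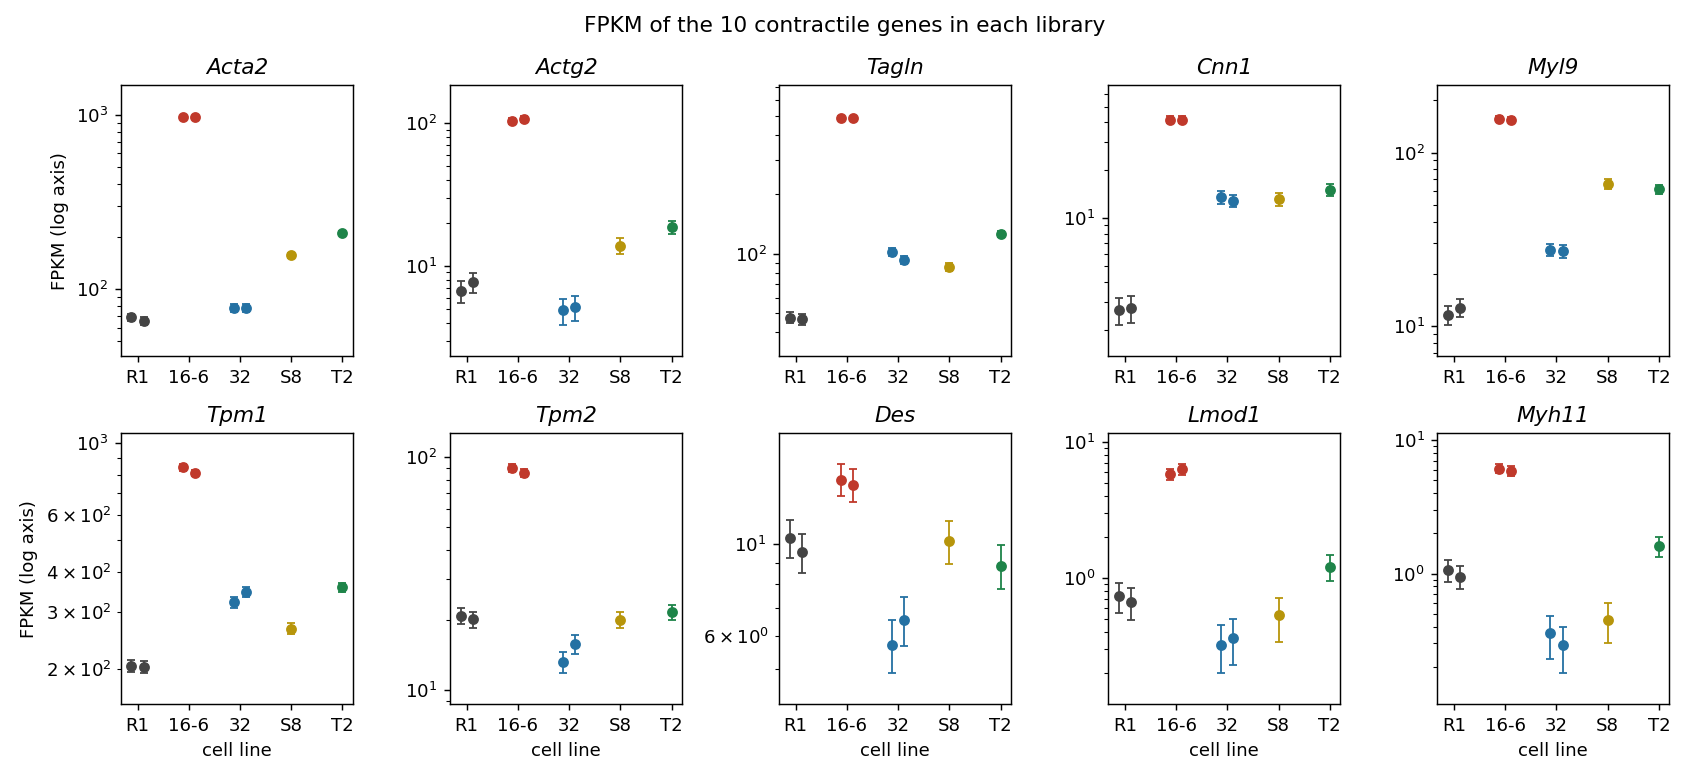
FPKM (log axis) of each of the 10 genes in the 8 libraries, grouped by cell line. Points are libraries and bars are the confidence limits that Cufflinks gave for each value. For all 10 genes the 2 libraries of 16-6 sit above the libraries of R1, 32, S8 and T2, and for Lmod1 and Myh11 the libraries of 32 sit lowest.

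Acta2 encodes smooth muscle alpha-actin, the classical marker of myofibroblasts (mm9 chr19:34315581-34329826). Its FPKM was 68.7 and 65.5 in R1, 966 and 968 in 16-6, 77.6 and 78.0 in 32, 156 in S8 and 209.8 in T2. In 16-6 it stood at rank 145 and 138 among all entries, compared with 1843 and 1982 in R1. Against R1, Acta2 was higher by 3.83 ± 0.04 (SE) in 16-6 (adjusted p = 4.04e-06), by 1.21 ± 0.05 in S8 (8.54e-05) and by 1.63 ± 0.05 in T2 (8.32e-05). The difference in 32 was 0.21 ± 0.04 and was not called. In the order 16-6, T2, S8, 32, R1 all neighbours differed at an adjusted p of 0.00633 or less. The last step, from 32 to R1, no longer passed under quantile normalization (0.07, adjusted p = 0.314) or upper quartile scaling (0.12, 0.0728).

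Actg2 encodes smooth muscle gamma-actin, the actin of visceral smooth muscle (mm9 chr6:83462903-83486245). Its levels were 8.46 to 15.9 times lower than those of Acta2 within a library, at 6.65 and 7.74 FPKM in R1, 104 and 107 in 16-6, 4.88 and 5.16 in 32, 13.9 in S8 and 18.8 in T2. The gene showed the widest spread of the 10 between lines, with a mean 21.1 times as high in 16-6 as in 32. It was higher than in R1 by 3.71 ± 0.08 in 16-6 (adjusted p = 4.62e-05) and by 1.27 ± 0.09 in T2 (0.000576), while the S8 difference of 0.86 ± 0.09 fell short of 2-fold. In 32 the value was -0.44 ± 0.08, on the opposite side of R1. Exact stretches shared between these actins and other coding genes were few. The study allowed mismatches in mapping, which an exact count does not cover, so the share of ambiguous reads was not measured. Of the 1732 stretches of 50 bases in the Acta2 transcript 0.4% recurred in another coding gene, and of those in Actg2 0.0% did, although the coding sequences of the 2 genes are 84.4% identical.

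Tagln encodes transgelin, an actin-binding protein induced early in smooth muscle differentiation and in myofibroblasts (chr9:45737711-45744141). Its FPKM was 47.6 and 46.6 in R1, 487 and 485 in 16-6, 102 and 92.7 in 32, 85.9 in S8 and 126 in T2. It was called higher in 16-6 (3.34 ± 0.05, adjusted p = 2.21e-05), 32 (1.03 ± 0.05, 0.000154) and T2 (1.40 ± 0.07, 0.000226). The call in 32 lay close to the limit and was lost without replicate 1 of 32, when the difference was 0.96. It was lost also under quantile normalization (0.89) and upper quartile scaling (0.94). In S8 the difference was 0.85 ± 0.07. Of its exonic bases 4.1% overlap those of Pcsk7 on the opposite strand, and the library kit named in the labels does not mark strand.

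Cnn1 encodes calponin 1, which binds actin and inhibits the myosin ATPase (chr9:21903697-21913665). Its FPKM was 2.65 and 2.72 in R1, 41.5 and 41.5 in 16-6, 13.6 and 12.9 in 32, 13.1 in S8 and 15 in T2. R1 was thus lowest, 16-6 highest, and the other 3 lines formed a middle group. Cnn1 was called higher than in R1 in all 4 iPSC lines, by 3.53 ± 0.05 in 16-6 (adjusted p = 1.1e-05), 1.95 ± 0.05 in 32 (1.91e-05), 1.94 ± 0.06 in S8 (6.5e-05) and 2.12 ± 0.06 in T2 (8.13e-05). Within the middle group, T2 and 32 (difference 0.17, adjusted p = 0.058) and 32 and S8 (0.01, 0.907) did not pass the test.

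Myl9 encodes the regulatory light chain of smooth muscle myosin, the subunit whose phosphorylation switches contraction on (chr2:156601200-156607393). Its FPKM was 11.6 and 12.7 in R1, 157 and 154 in 16-6, 27.5 and 26.9 in 32, 66.1 in S8 and 61.4 in T2. As with Cnn1, both R1 libraries lay below every iPSC library. Myl9 was called higher in 16-6 (3.57 ± 0.05, adjusted p = 1.66e-05), S8 (2.35 ± 0.07, 5.64e-05), T2 (2.25 ± 0.07, 8.6e-05) and 32 (1.10 ± 0.05, 0.000123). The difference between S8 and T2 was 0.11 with a 95% interval of -0.09 to 0.30. The estimated fragments were 269 and 296 in R1, 595 and 594 in 32, 1035 in S8 and 1078 in T2. Fewer fragments thus stood behind each FPKM of Myl9 in S8 and T2 than in the other lines. What this does to its differences from R1 and 32, and to its share of the contractile sum, was not tested.

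Myh11 encodes the smooth muscle myosin heavy chain, the most specific marker of mature smooth muscle among the 10 (chr16:14194620-14291501). It was scarce throughout, at 1.06 and 0.95 FPKM in R1, 6.11 and 5.88 in 16-6, 0.36 and 0.29 in 32, 0.45 in S8 and 1.60 in T2. In 16-6 the level of Acta2 was 158 and 165 times that of Myh11, and the ratios were 64.7 and 68.8 in R1, 217 and 269.5 in 32, 348 in S8 and 131 in T2. Myh11 was higher than in R1 by 1.80 ± 0.07 in 16-6 (adjusted p = 0.000136). The values of -0.60 ± 0.07 in 32 and -0.47 ± 0.09 in S8 were below R1, and that of 0.38 ± 0.09 in T2 was above, all 3 short of 2-fold in FPKM + 1. In FPKM itself, the 32 mean was 0.32 times the R1 mean and the S8 value 0.45 times. The 32 and S8 libraries rested on an estimated 27 to 35 fragments. Because 1 was added to each FPKM, such differences are understated, and with 0.1 added in its place those of 32 and S8 became -1.39 and -1.01 and were called.

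Tpm1 encodes alpha-tropomyosin, which lies along the actin filament and is made in muscle and non-muscle forms from 1 gene (chr9:66870400-66897020). It was the most abundant member in R1, 32, S8 and T2, at 205 and 203 FPKM in R1, 842 and 807 in 16-6, 322 and 346 in 32, 267 in S8 and 358 in T2. The entry sums all transcripts of the gene, so muscle and non-muscle forms could not be separated. Tpm1 was called in 16-6 alone among the 4 comparisons with R1 (2.01 ± 0.05, adjusted p = 6.6e-05). The other differences from R1 were 0.71 ± 0.05 in 32, 0.39 ± 0.06 in S8 and 0.81 ± 0.06 in T2.

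Tpm2 encodes beta-tropomyosin (chr4:43527584-43536260). Its FPKM was 20.8 and 20.2 in R1, 89.6 and 85.3 in 16-6, 13.2 and 15.8 in 32, 20.1 in S8 and 21.6 in T2. Apart from 16-6, then, Tpm2 stayed near or below its level in R1. It was higher by 2.04 ± 0.09 in 16-6 (adjusted p = 0.000154), whereas T2, R1 and S8 were neighbours in the order that did not pass the test (0.07 and 0.03, adjusted p = 0.595 and 0.832). The ratio of Tpm1 to Tpm2 was 9.83 and 10.1 in R1 and 9.39 and 9.47 in 16-6, but 24.4 and 21.9 in 32.

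Des encodes desmin, the muscle intermediate filament protein (chr1:75356919-75364290). It varied least, at 10.3 and 9.54 FPKM in R1, 14.2 and 13.9 in 16-6, 5.72 and 6.57 in 32, 10.1 in S8 and 8.85 in T2. The highest line mean was 2.29 times the lowest, compared with 4.04 to 21.1 times for the other 9 genes. No comparison with R1 was called, with differences of 0.46 ± 0.08 in 16-6, -0.61 ± 0.08 in 32, 0.03 ± 0.10 in S8 and -0.15 ± 0.10 in T2. The sign of the S8 value turned without replicate 2 of R1 and under upper quartile scaling. Of the exonic bases of Des 5.9% overlap a gene on the opposite strand.

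Lmod1 encodes leiomodin 1, which starts new actin filaments in smooth muscle (chr1:137221390-137264642). With Myh11 it was the rarest member, at 0.74 and 0.66 FPKM in R1, 5.80 and 6.28 in 16-6, 0.32 and 0.36 in 32, 0.53 in S8 and 1.20 in T2, with an estimated 26 fragments in the poorest library. Only the 16-6 difference from R1 was called (2.05 ± 0.07, adjusted p = 0.000113). In FPKM itself, the 32 mean was 0.49 times the R1 mean, a difference of -0.34 ± 0.07 with 1 added and -0.85 with 0.1 added. R1 and S8 (0.16, adjusted p = 0.186) and S8 and 32 (0.18, 0.142) did not pass the test as neighbours, while T2 lay above R1 by 0.37 ± 0.09 (0.0203).

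Taken by comparison, 9 of the 10 members were called higher in 16-6 than in R1 and 0 lower, against 3.58% of all tested entries called higher and 3.53% called lower. Des was the member not called. Because the members were chosen with earlier results of these data known, this count describes them and is not an independent test. The median difference of the 10 was 2.69, compared with -0.03 over all tested entries. The count was 9 under the alternatives tried, except 10 where no minimum fold was asked and 7 of the 8 members left where a gene needed 1 FPKM in every library.

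In 32 against R1, 3 members were called higher (Cnn1, Myl9 and Tagln) and 0 lower, against 1.54% and 8.23% of all tested entries. The median was -0.06, beside -0.02 over all entries, since Actg2, Tpm2, Des, Lmod1 and Myh11 lay below R1. This comparison depended most on the scaling, as quantile normalization moved the share of calls that were higher from 15.8% to 34.2% over all entries. In S8 against R1, 3 members were called higher (Myl9, Cnn1 and Acta2) and 0 lower, against 6.93% and 9.74% of entries, and the median was 0.62. In T2 against R1, 5 were called higher (Myl9, Cnn1, Acta2, Tagln and Actg2) and 0 lower, against 3.95% and 6.54%, and the median was 1.04.

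**Figure D2:**
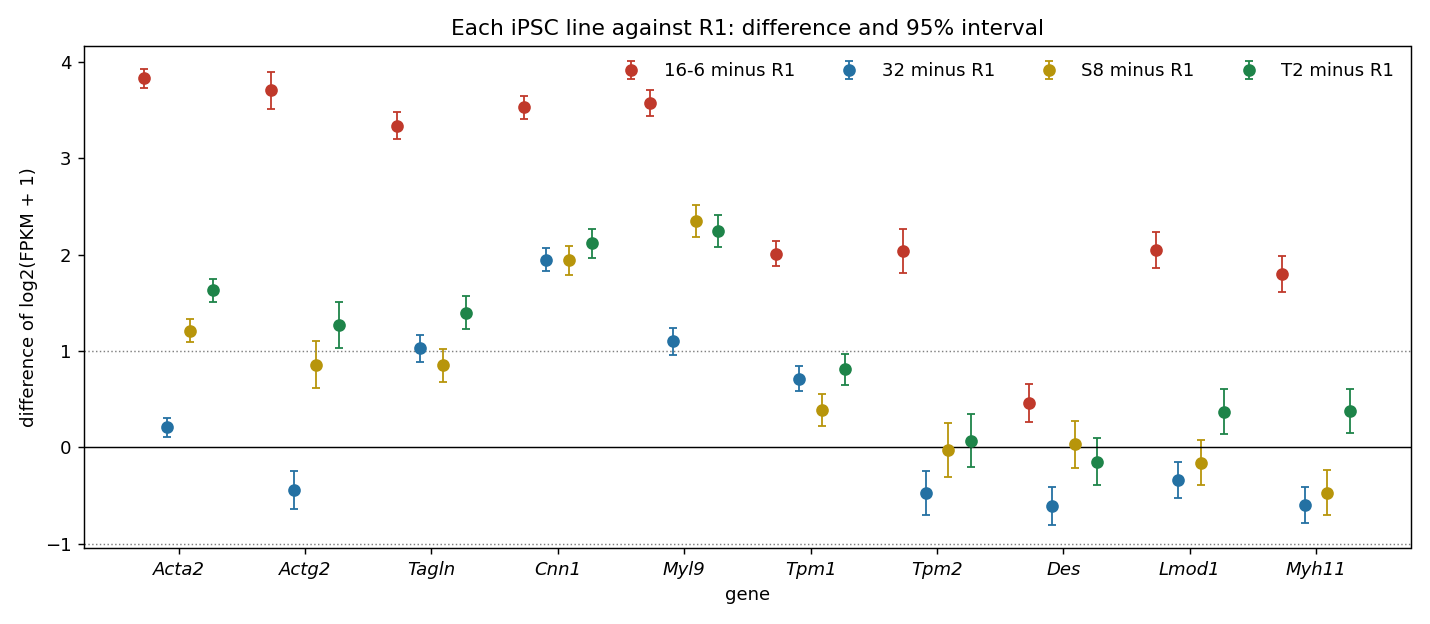
Difference of log2(FPKM + 1) between each iPSC line and R1 for the 10 genes, with 95% intervals from limma. Dotted lines mark 2-fold in FPKM + 1. The 16-6 values run from 0.46 for Des to 3.83 for Acta2, whereas the values of 32 lie on both sides of 0.

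Both 16-6 and 32 came from mesodermal cells, and all 10 members were called higher in 16-6 than in 32, where 9.22% of all entries were called higher and 1.09% lower. The differences ran from 1.08 ± 0.08 for Des to 4.15 ± 0.08 for Actg2, with a median of 2.40. The Des call was lost without replicate 1 of 32 (0.99) and under quantile normalization (0.87). Against S8 and against T2, 9 members each were called higher in 16-6 and Des was not. Of the 13693 tested entries, 1430 and 875 were called higher there, and 17.3% and 8.07% in either direction. In 32 against S8, Actg2 (-1.30 ± 0.09) and Myl9 (-1.25 ± 0.07) were called lower. In 32 against T2, Acta2 (-1.42 ± 0.05), Actg2 (-1.72 ± 0.09) and Myl9 (-1.15 ± 0.07) were called lower. Of the 13693 tested entries, 996 and 635 were called lower in these comparisons, and 11.8% and 7.43% in either direction.

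S8 and T2 came from ectoderm and endoderm. By limma 0 members were called, where 0.92% of entries were called higher in S8 and 1.83% lower, although 7 members passed an unadjusted p of 0.05 and 6 an adjusted p of 0.05. A count of 0 among 10 is near these shares of all entries, and the median of the 10 was -0.42. All 6 were lower in S8: Acta2 (-0.42 ± 0.05), Actg2 (-0.41 ± 0.11), Tagln (-0.55 ± 0.08), Tpm1 (-0.42 ± 0.07), Lmod1 (-0.53 ± 0.11) and Myh11 (-0.85 ± 0.10). With 0.1 added to each FPKM, Lmod1 (-1.06) and Myh11 (-1.63) passed 2-fold as well.

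The adjusted p without a minimum fold was passed by a large share of all entries, so a member that passes it alone is no exception. The shares of all entries were 55.6% for 16-6 against R1, 61.5% for 32 against R1, 66.7% for S8 against R1, 57.9% for T2 against R1 and 60.4% for 16-6 against 32. They were 34.5% for S8 against T2, 66.6% and 52.4% for 16-6 against S8 and T2, and 60.8% and 52.3% for 32 against S8 and T2.

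The make-up of the contractile sum also differed between lines. Tpm1 gave 54.6% and 54.9% of the summed FPKM in R1, 56.8% and 59.2% in 32, 42.1% in S8 and 43.6% in T2, and Acta2 came next in R1, S8 and T2. In 16-6 Acta2 led with 35.6% and 36.2%, ahead of Tpm1 with 31.0% and 30.2%. In 32 the Tagln share of 18.01% and 15.8% exceeded the Acta2 share of 13.7% and 13.3%, and the ratio of Acta2 to Tagln was 0.76 and 0.84 there, compared with 1.41 to 2.0 in the other lines. The share of Myl9 was highest in S8, at 10.4%.

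**Figure D3:**
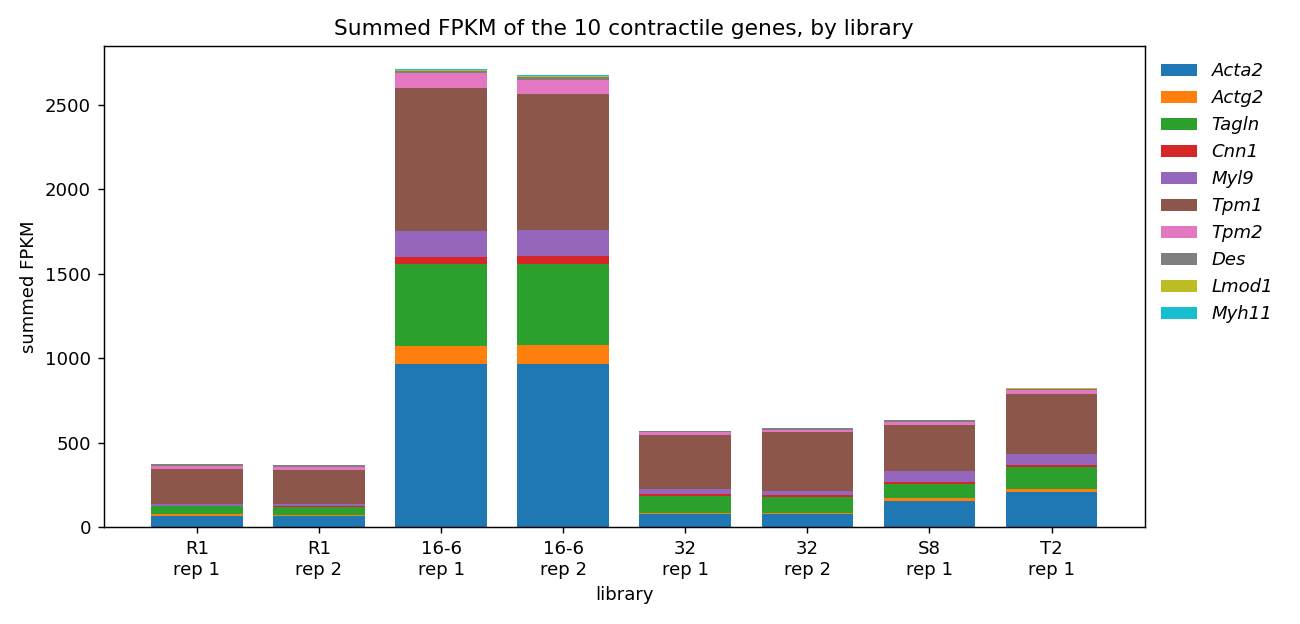
Summed FPKM of the 10 genes in each library, with the part of each gene in colour. The 16-6 bars reach 2713 and 2675, the R1 bars 375 and 369.7, and Tpm1 and Acta2 make up most of every bar.

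Across the 8 libraries the log2 levels of the members varied together, with Pearson's r between 0.36 (Des and Cnn1) and 0.99 and a median of 0.89 over 45 pairs. These values describe libraries that share lines and are dominated by the 2 libraries of 16-6. Over the 6 libraries of the other 4 lines the median was 0.52, and 13 pairs were below 0. There Cnn1 and Tagln (0.97), Tagln and Tpm1 (0.96) and Cnn1 and Tpm1 (0.93) went together, as did Lmod1 and Myh11 (0.97) and Tpm2 and Des (0.94), whereas Des and Tpm1 (-0.66) went apart.

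For a mean profile, the log2 levels of each member were centred, scaled to equal spread and averaged. Of the other genes, the 10 whose log2 levels followed this mean most closely over the 8 libraries were Tln1, Ncs1, Clic4, Kctd10, Bag2, Fgd3, Gm7120, Tmcc3, Ankrd1 and Apol10b, with r from 0.9908 to 0.9808. The 2 libraries of 16-6 weigh heavily in these values as well. Fgd3 and Apol10b reached 1 FPKM only in 16-6, with 0.05 to 0.3 FPKM in the other lines. Tln1 encodes talin, which ties integrins to actin, and had 29.2 and 31.9 FPKM in R1 and 66.0 and 67.8 in 16-6. At r of 0.9 or more there were 266 entries, 1.94% of those tested.

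The shares of all entries called, given above for each comparison, are the background for the counts of the lists that follow. Contractile partners of the members, such as kinases, cross-linkers and adhesion proteins, were in part higher in 16-6 as well. Of 18 tested genes of this list, 8 were called higher and 0 lower in 16-6 than in R1, with a median of 0.63. Cald1, which encodes caldesmon, an actin-binding inhibitor of contraction, had 60.7 and 67.4 FPKM in R1, 241 and 240.2 in 16-6, 28.2 and 30.1 in 32, 46.7 in S8 and 83.3 in T2. It was higher by 1.90 ± 0.06 in 16-6 and called lower in 32, with a difference of -1.11 ± 0.06. Pdlim7, a cytoskeletal adaptor, was called higher in 16-6 (1.58 ± 0.08), S8 (1.51 ± 0.10) and T2 (1.40 ± 0.10). In 32 against R1 the list had 0 called higher and 3 lower, in S8 2 higher and 3 lower, and in T2 1 higher and 0 lower. In 16-6 against 32 it had 5 higher and 0 lower, and its median in S8 against T2 was -0.37. Mylk, the kinase of the regulatory light chain, was low in every line, with 0.13 to 1.54 FPKM.

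Of 19 tested regulators of the smooth muscle program, 1 was called higher in 16-6 than in R1 and 0 lower, with a median of 0.27. With 3.58% of all entries called higher, such a count is near the background. The gene called was Tgfb3, a TGF-beta ligand, with 3.22 and 3.59 FPKM in R1 and 12.1 and 12.5 in 16-6 (1.60 ± 0.08). Myocd, which encodes myocardin, was listed at 0.03 to 0.19 FPKM in all libraries. Srf had 43.5 and 42.1 FPKM in R1, 67.8 and 67.2 in 16-6, 61.2 and 67.5 in 32, 69.7 in S8 and 50.8 in T2. In 32 against R1, 0 were called higher and 5 lower, led by the mesenchymal factor Prrx1 (-3.98 ± 0.04) and the TGF-beta receptor Tgfbr2 (-2.01 ± 0.05). Prrx1 was also lower in S8 (-2.87 ± 0.05) and T2 (-2.30 ± 0.05), where the list had 0 higher and 5 lower and 1 higher and 3 lower.

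Target genes of SRF and YAP outside the contractile apparatus, among them growth response and matrix genes, were next. Of 12 tested, 7 were called higher and 0 lower in 16-6 than in R1, with a median of 1.04. Ankrd1, a nuclear ankyrin repeat protein and well-known YAP target, had 2.59 and 2.82 FPKM in R1, 34.5 and 34.7 in 16-6, 1.5 and 1.89 in 32, 2.72 in S8 and 5.19 in T2 (16-6 against R1 3.27 ± 0.09). Thbs1, which encodes the matrix protein thrombospondin 1, was higher in 16-6 (2.36 ± 0.04) and lower in 32 (-1.61 ± 0.04) and S8 (-1.53 ± 0.05). The list had 0 higher and 2 lower in 32, 0 and 1 in S8, and 1 and 0 in T2, where the immediate early gene Fos was the one called (1.43 ± 0.07).

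Relatives of the members were the other actins, calponins, transgelins, tropomyosins, myosin chains and leiomodins, and Vim, which like Des encodes an intermediate filament protein. They included 2 muscle genes that were higher in all 4 iPSC lines. Acta1, the skeletal muscle actin, had 1.93 and 1.21 FPKM in R1, 39.2 and 42.4 in 16-6, 9.22 and 7.94 in 32, 11.3 in S8 and 12.7 in T2. Its differences from R1 were 4.04 ± 0.15 in 16-6, 1.91 ± 0.15 in 32, 2.27 ± 0.19 in S8 and 2.43 ± 0.19 in T2, all called. Actc1, the cardiac actin, had 1.27 and 1.21 FPKM in R1 and 6.18 to 7.87 in the iPSC libraries, with differences of 1.72 to 1.98. Actc1 thus did not stand out in 16-6. Of 16 relatives tested, 5 were called higher and 1 lower in 16-6, 2 and 1 in 32, 3 and 0 in S8, and 3 and 1 in T2. The genes called lower were Vim in 32 (-1.68 ± 0.04) and the non-muscle myosin Myh14 in 16-6 (-1.30 ± 0.09) and T2 (-1.02 ± 0.11). Cytoplasmic actins far exceeded the members, Actb at 3049 to 4657 FPKM.

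The skeletal master genes Myod1, Myog and Myf5 stood at 0.0 to 0.67 FPKM, and of the 11 skeletal genes on the list 7 to 9 were below 1 FPKM in each library. Mylpf, the light chain of fast fibres, was the exception, with 89.4 and 95.01 FPKM in R1, 94.2 and 88.0 in 16-6, 160 and 167 in 32, 66.5 in S8 and 41.8 in T2. It lay above most of the members in R1, 32, S8 and T2, but not in 16-6. It was called lower in T2 (-1.12 ± 0.07), and Acta1 was called higher in every iPSC line. The cardiac list summed to 16.7 to 26.9 FPKM in all libraries, with Actc1 called higher in each iPSC line and the atrial light chain Myl7 lower in 16-6 (-1.08 ± 0.13) and T2 (-1.71 ± 0.16). Of the 8 genes on the list for pericytes and vascular smooth muscle, Rgs5, Kcnj8, Abcc9 and Higd1b were below 1 FPKM in every library. The other 4 were measured and tested, Notch3 at 15.8 to 43.4 FPKM, Mcam at 11.6 to 19.97, Cspg4 at 0.5 to 9.15 and Ndufa4l2 at 1.35 to 49.9. Against R1, Cspg4 was higher in 16-6 (1.30 ± 0.07) and lower in 32 (-1.44 ± 0.07), and Notch3 was higher in T2 (1.30 ± 0.06). Ndufa4l2 was lower in 16-6 (-3.88 ± 0.24), 32 (-4.11 ± 0.24), S8 (-1.57 ± 0.29) and T2 (-2.51 ± 0.29). Of 3 tested endothelial genes 1 was called against R1, the receptor gene Tek in T2 (-1.03 ± 0.12).

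Fibroblast markers, which the feeder cells express, moved with the members in part. The 22 genes of this list summed to 2112 and 2253 FPKM in R1, 4329 and 4332 in 16-6, 471 and 471 in 32, 1035 in S8 and 1397 in T2. In 16-6 against R1, 11 were called higher and 2 lower, with a median of 0.99. Postn, which encodes periostin, was higher by 2.28 ± 0.08 and Fbln2, fibulin 2, by 2.07 ± 0.08, while the matrix proteoglycan genes Dcn (-2.63 ± 0.09) and Lum (-2.72 ± 0.10) were lower. In 32 against R1, 0 were called higher and 20 lower, with a median of -2.77, beside the 3 members called higher there. S8 had 0 higher and 11 lower, with a median of -1.08, and T2 0 and 10, with a median of -0.59. In 16-6 against 32 all 22 were called higher, with a median of 3.93, and in S8 against T2 0 were higher and 2 lower. Over the 8 libraries the mean log2 level of the fibroblast list followed that of the members at r = 0.57. For the other lists r was 0.98 (relatives), 0.97 (SRF and YAP targets), 0.92 (partners), 0.65 (regulators) and 0.65 (skeletal muscle). It was 0.1 for pericytes, -0.35 for cardiac muscle, -0.72 for endothelium and -0.93 for pluripotent cells. The 2 libraries of 16-6 weigh heavily in the members' part of these values, which are descriptions only. In these bulk libraries, more fibroblasts in a dish and more RNA of a gene per cell cannot be told apart, and the part of the feeder cells in the differences was not tested.

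**Figure D4:**
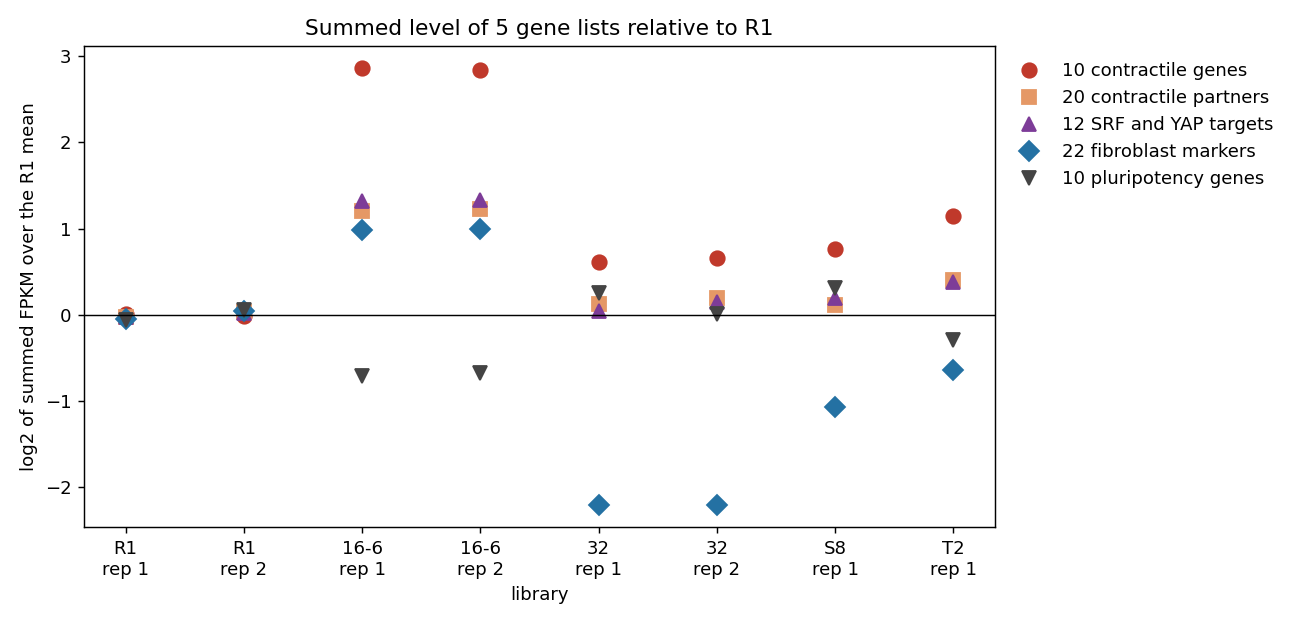
Summed FPKM of 5 gene lists in each library, as log2 of the ratio to the mean of R1. In 16-6 the sum of the contractile genes sits highest and that of the pluripotency genes lowest. In 32 the sum of the fibroblast markers falls below R1 while that of the contractile genes does not. Tpm1 gives 56.8% and 59.2% of the contractile sum in 32, and 5 of the 10 members lie below R1 there.

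All libraries carried the markers of pluripotent cells. The 10 genes of that list summed to 4249 and 4621 FPKM in R1, 2714 and 2775 in 16-6, 5267 and 4469 in 32, 5485 in S8 and 3632 in T2. The sum was thus lowest where that of the members was highest. In 16-6 against R1, 0 were called higher and 2 lower, Zfp42 (-1.92 ± 0.05) and Esrrb (-1.04 ± 0.04), both genes of naive pluripotency. Pou5f1 had 605 and 636 FPKM in R1 and 485 and 492 in 16-6. In 32, S8 and T2, 0 and 1, 1 and 3, and 0 and 3 genes were called higher and lower, Zfp42 among the lower ones each time.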

How the data were processed

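RNA was sequenced from 8 libraries of 5 mouse pluripotent lines, assigned to lines and replicates by the sample titles. Per the labels and the study's methods, the authors aligned reads with TopHat 2.0.4 to mm9, discarded reads without a unique alignment and deposited FPKM values with confidence limits from Cufflinks (2.0.2 in the methods, 2.0.0 in the submitters' processing notes). Library totals of the deposited FPKM are 1.14e+10 to 1.6e+10, so all were divided by 1 constant, 12725.7, which sets the median total to 1000000 and leaves ratios between libraries as deposited. The limits were taken to lie 2 Poisson standard deviations from the value, from which the fragments behind it were estimated, and 80.8% to 82.3% of those under 50 came within 0.01 of a whole number. Per library they came to 15.5 to 16.7 in units of 1000000. They cover counting error only.

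Gene entries with at least 1 FPKM in at least 1 library (13693, including all 10 members) were fitted as log2(FPKM + 1) with limma 3.58.1 in R 4.3.3, with 8 libraries in 5 groups and 3 residual degrees of freedom, and Benjamini-Hochberg adjustment over all entries. On simulated data the fit was tested before use. Differences of lists are counts and medians with no set test. The lists are contractile partners, regulators, SRF and YAP targets, relatives, and markers of fibroblasts, cardiac and skeletal muscle, pericytes, endothelium and pluripotent cells. The 10 members and the lists were chosen with earlier results of these data known. Named from each list were up to 2 genes with the largest called rise and up to 2 with the largest called fall per comparison, the 10 genes most alike to the members, and, chosen after their values were seen, Mylk, Myocd, Mylpf, Notch3, Mcam, Srf, Actb, Pou5f1, Myod1, Myog, Myf5, Rgs5, Kcnj8, Abcc9 and Higd1b as levels. Same-numbered replicates did not deviate together (correlations -0.097, 0.001 and 0.028), so no pairing was used. Alternatives changed the pseudocount, the filter, the scaling, the fold minimum, the variance trend, the libraries and the replicate block. Promoters and transcripts came from RefSeq (GRCm38.p6) and GENCODE (mm9). Columns other than FPKM and its limits were not used. With 2 libraries against 2, an exact permutation test could not go below 0.33, and none was run.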

Additional observations from a re-analysis of the deposited data

Results flagged for a closer look

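For 5 members the difference from R1 lay above 0 in one line and below 0 in another, each at an adjusted p under 0.05 with no minimum fold, and the difference between the 2 lines was tested in the same limma fit. All these comparisons share the R1 libraries. Against R1, 55.6% to 66.7% of all entries passed an adjusted p of 0.05 alone in the limma fit. How many of all entries meet the rule for opposite sides was not counted, so the number of members is no result about them. The side of R1 was no longer past that p for Actg2 and Lmod1 in 32 (-0.14 and -0.04) and Myh11 in S8 (-0.24) under quantile normalization, for Lmod1 in 32 (-0.32) without replicate 1 of 32, and for Lmod1 and Myh11 in T2 (0.34 and 0.34) without replicate 2 of R1. Actg2 differed between 16-6 and 32 by 4.15 ± 0.08 (adjusted p = 5.48e-06), between S8 and 32 by 1.3 ± 0.09 (0.000409) and between T2 and 32 by 1.72 ± 0.09 (0.000388). The differences between 16-6 and 32 were 2.51 ± 0.09 for Tpm2 (adjusted p = 3.39e-05) and 1.08 ± 0.08 for Des (0.00031). Lmod1 differed by 2.39 ± 0.07 between 16-6 and 32 (2.41e-05) and by 0.71 ± 0.09 between T2 and 32 (0.00312). Myh11 lay below R1 in 32 and S8 and above it in 16-6 and T2. Its differences were 2.4 ± 0.07 between 16-6 and 32 (2.21e-05), 2.27 ± 0.09 between 16-6 and S8 (7.32e-05), 0.98 ± 0.09 between T2 and 32 (0.00132) and 0.85 ± 0.1 between T2 and S8 (0.0059). S8 and T2 entered with 1 library each. The other 5 members, Acta2, Tagln, Cnn1, Myl9 and Tpm1, lay above R1 in all 4 iPSC lines, and the share of all entries that do was not counted. Under quantile normalization the difference from R1 shrank to 0.07 for Acta2 in 32 and to 0.03 for Tpm1 in S8.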

How the results depend on the processing

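Of the values recomputed under alternatives, 585 kept their direction and their side of the threshold. Without a fold minimum, the members past the test were 10 for 32 against R1, 7 for S8 against R1, 8 for T2 against R1 and 6 for S8 against T2. With 0.1 added to each FPKM, 2 were called for S8 against T2, Lmod1 (-1.06) and Myh11 (-1.63), and Myh11 was called for 32 (-1.39) and S8 (-1.01) against R1. Directions turned for 3 small values that were called under no setting, namely Des in S8 against R1 (-0.07 by upper quartile scaling and -0.02 to 0.08 with single libraries left out), Lmod1 in S8 against R1 (0.05 by quantile normalization) and Myl9 in S8 against T2 (-0.05 by quantile normalization). Calls were lost for Tagln in 32 against R1 (0.89 by quantile normalization, 0.94 by upper quartile scaling, 0.96 without replicate 1 of 32) and for Des in 16-6 against 32 (0.87 by quantile normalization, 0.99 without replicate 1 of 32), by falling below 2-fold. With single libraries left out, the differences kept their direction, except that of Des in S8 against R1 without replicate 2 of R1. Those that fell below 2-fold were the Tagln and Des values named above, both without replicate 1 of 32. No library could be left out of S8 against T2, so that comparison was not checked in this way. With the replicate number as a block on 6 libraries, the counts were 9, 3 and 10 for 16-6 against R1, 32 against R1 and 16-6 against 32, and they were the same without it. The block was not possible for S8 and T2, which have 1 library each. Averaging the 16-6 libraries as 1 sample, an alternative chosen after seeing the data, left 9 and 10 called against R1 and 32. Depth limits Lmod1 and Myh11 most, with an estimated 26 to 35 fragments in 32 and S8.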
